A study of Mus musculus with 3 samples.

Results

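The genes described are 7 Toll-like receptors (Tlr1, Tlr2, Tlr4, Tlr6, Tlr7, Tlr9 and Tlr13), 2 co-receptors (Cd14 and Ly96) and the adaptor Myd88, 10 of the 32285 genes in the count tables, chosen by symbol. Their mRNA was counted, cell by cell in droplets, in peripheral blood mononuclear cells (PBMCs) of female C57BL/6 mice, and each of the 3 groups gave 1 library. Young mice were 8 weeks old and untreated, aged mice were 16 months old and untreated per the labels, and aged-GA mice were 16 months old and received glycyrrhizic acid (GA, a triterpenoid from liquorice root) for 1 month. The methods of the study give GA by tail vein every other day and a buffer as the control, and the study drew blood from several mice per group without stating whether they were pooled in the library. Group and library therefore cannot be told apart, no test between groups was possible, and every interval given is an exact 95% interval that covers counting error only.

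Toll-like receptors are innate sensors that bind parts of microbes and some products of damaged cells. Tlr1, Tlr2, Tlr4 and Tlr6 act at the cell surface, where Tlr2 pairs with Tlr1 or Tlr6 to bind lipopeptides and Tlr4 binds lipopolysaccharide with its co-receptor Ly96 (MD-2) after Cd14 has handed the ligand over. Tlr7, Tlr9 and Tlr13 sit in endosomes and bind single-stranded RNA, unmethylated DNA and bacterial ribosomal RNA. All of these receptors signal through Myd88, which recruits IRAK kinases and TRAF6 and leads to NF-kappaB and IRF activity. In mouse blood, monocytes and neutrophils are known as the main carriers of the surface receptors, and B cells as carriers of Tlr7 and Tlr9.

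Promoter sequences of 4 members are shown because these genes carry the main contrast in the values. Of the main cell types, Tlr1 had its highest level in B cells, whereas Tlr2 and Tlr6, which pair with each other, had theirs in neutrophils. The sparsely counted Tlr9 also had its highest measured level in B cells, level with classical monocytes in aged mice. For Tlr9, only T cells could be placed below B cells in each library. Tlr1 (chr5:64924679-64933563) and Tlr6 (chr5:64952031-64960097) are neighbours on the minus strand, with 18467 bases and 0 protein-coding genes between them, while Tlr2 lies at chr3:83836272-83841767 on the minus strand and Tlr9 at chr9:106222598-106226883 on the plus strand. The stretches printed are the parts of the RefSeq promoter windows that lie outside every annotated gene, in build GRCm38.p6, read 5′ to 3′ on the strand of the gene: chr5:64933564-64933808 for Tlr1, chr9:106222348-106222597 for Tlr9, chr5:64960098-64960298 for Tlr6 and chr3:83841768-83841858 for Tlr2. Capitals mark matches, on either strand, of the motifs searched.
Tlr1: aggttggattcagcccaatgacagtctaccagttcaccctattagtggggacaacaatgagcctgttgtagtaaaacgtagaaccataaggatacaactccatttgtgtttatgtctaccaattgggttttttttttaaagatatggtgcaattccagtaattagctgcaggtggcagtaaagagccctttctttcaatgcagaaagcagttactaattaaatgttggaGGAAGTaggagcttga
Tlr9: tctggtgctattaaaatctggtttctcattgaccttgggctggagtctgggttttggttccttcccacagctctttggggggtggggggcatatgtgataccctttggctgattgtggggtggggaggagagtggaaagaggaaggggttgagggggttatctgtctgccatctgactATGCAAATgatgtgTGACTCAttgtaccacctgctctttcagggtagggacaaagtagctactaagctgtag
Tlr6: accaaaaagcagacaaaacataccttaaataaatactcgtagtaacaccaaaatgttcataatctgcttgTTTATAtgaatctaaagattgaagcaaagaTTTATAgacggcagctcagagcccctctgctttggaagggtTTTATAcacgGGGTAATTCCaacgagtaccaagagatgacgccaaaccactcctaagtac
Tlr2: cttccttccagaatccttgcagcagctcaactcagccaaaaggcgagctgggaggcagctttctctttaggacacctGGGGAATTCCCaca
The capitals in Tlr1 are the core bound by PU.1 and other ETS factors (GGAAGT), which 19.7% of the 32851 promoter windows of 250 bases hold. The full window of Tlr2 also held this core, 25 bases before the RefSeq start used for the window. That start lies 159 bases inside the gene span given above, so this core is within the span and outside the stretch printed. All percentages are of full windows, and the stretches printed for Tlr1, Tlr2 and Tlr6 are shorter. Those in Tlr9 are the octamer (ATGCAAAT, held by 1.60% of windows) and an AP-1 motif (TGANTCA, 6.75%). In Tlr6 they are 3 TATA boxes (TATAAA, 12.4%), which read TTTATA on this strand, and 1 NF-kappaB motif (GGG, any 5 bases, CC, in 45.8%), and in Tlr2 they are 2 NF-kappaB motifs that overlap. Also searched, without a match in these stretches, were the interferon response element (GAAA, any 2 bases, GAAA, in 2.98%) and the EBF1 motif (TCCC, any 2 bases, GGGA, in 0.779%). Of the members, 6 were in the promoter table (Tlr1, Tlr2, Tlr6, Tlr9, Tlr13 and Myd88), and a match is a description of letters, not of binding.

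Cells were assigned by their own UMIs (unique molecular identifiers, counted molecules) of marker genes that hold no member. The libraries held 8851 young, 10238 aged and 12648 aged-GA cells after filtering, with a median of 4671, 3810.5 and 4752 UMIs per cell, and libraries shared between 50 and 62 cell barcodes. B cells numbered 2253, 3964 and 5268 in young, aged and aged-GA mice, T cells 5235, 2043 and 3366, and NK cells 312, 242 and 252. Classical monocytes numbered 2, 597 and 81, nonclassical monocytes 44, 384 and 171, and neutrophils 11, 704 and 441, so young mice gave no usable level in classical monocytes and neutrophils. Cells that passed several gates numbered 564, 1678 and 1845 and stayed out of the cell types. Levels are in CPM, the UMIs of a gene per 1000000 UMIs of the same cells. They are not amounts per cell, since the cell types differed in UMIs per cell. Since UMIs mark the 3′ end of a transcript and are not set against transcript length, levels were compared between cell types within a gene, not between genes.

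Lymphocytes carried UMIs of myeloid mRNAs at levels that differed between the libraries, which is given here beside the low values of the members. Lyz2, an abundant monocyte and neutrophil mRNA, was at 0.822 CPM in T cells of young mice, 101 CPM in aged mice and 27.3 CPM in aged-GA mice. All 10 neutrophil markers had UMIs in aged T cells, at a summed 205 CPM, against 8 of 10 at 6.61 CPM in young and 10 of 10 at 132 CPM in aged-GA T cells, with Mmp8 and Trem1 at 0 in young T cells. The source of these UMIs was not tested.

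Among the surface receptors, Tlr2, which senses lipopeptides, had 285 UMIs or 152 CPM (135 to 171) in aged and 233 CPM (207 to 262) in aged-GA neutrophils. In classical monocytes its level was 78.7 CPM (71.7 to 86.2) in aged and 98.0 CPM (76.8 to 123) in aged-GA mice, and in nonclassical monocytes it was 72.4, 64.6 and 51.2 CPM in young, aged and aged-GA mice. Neutrophils thus stood above classical monocytes by 1.93-fold (1.66 to 2.25) in aged and 2.38-fold (1.84 to 3.12) in aged-GA mice, and the nonclassical over classical ratio was 0.821 (0.667 to 1.00) in aged and 0.523 (0.352 to 0.768) in aged-GA mice. The 2 kinds of monocyte were thus separated beyond counting error in the aged-GA library but not in the aged one. Per cell, the order of neutrophils and classical monocytes turned in aged mice, with 285 Tlr2 UMIs in 704 and 461 in 597 cells. It turned in aged-GA mice too, with 289 in 441 and 73 in 81 cells. The same turn was present for Tlr13, Cd14 and Myd88 in both libraries. For Tlr4 and Tlr6 it was present in aged but not in aged-GA mice. B cells held 1.40, 2.92 and 2.18 CPM of Tlr2, and T cells 1.25, 1.78 and 1.78 CPM. At 1000 UMIs per cell, 15.2% of aged and 21.3% of aged-GA neutrophils had a Tlr2 UMI, against 0.294% and 0.119% of T cells.

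Tlr6, the partner of Tlr2, was likewise highest in neutrophils among the main cell types of aged and aged-GA mice. Its order between the 2 kinds of monocyte was open, with a nonclassical over classical ratio of 1.07 (0.643 to 1.72) in aged mice. Its level was 33.6 CPM (25.8 to 43.0) in aged and 33.1 CPM (23.8 to 44.9) in aged-GA neutrophils, and 11.8 and 9.40 CPM in classical monocytes. Neutrophils stood above classical monocytes by 2.85-fold (1.996 to 4.08) in aged and 3.52-fold (1.56 to 9.31) in aged-GA mice, the latter on 7 monocyte UMIs. Nonclassical monocytes held 18.1 (4 UMIs), 12.6 and 6.83 CPM, and B cells 0.582, 2.70 and 1.51 CPM.

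Tlr1, the other partner of Tlr2, had a different order, led by B cells. Its level was 11.99 CPM (9.79 to 14.5) in young, 24.9 CPM (22.3 to 27.6) in aged and 18.4 CPM (16.6 to 20.2) in aged-GA B cells, and 6.002, 12.3 and 8.96 CPM in T cells. B cells stood above T cells by nearly the same ratio in each library: 1.998 (1.55 to 2.57) in young, 2.02 (1.64 to 2.50) in aged and 2.05 (1.72 to 2.45) in aged-GA mice. Aged classical and nonclassical monocytes held 9.05 and 9.45 CPM, a ratio of 1.04 (0.576 to 1.81). Neutrophils, with the highest Tlr2, had 4 and 2 UMIs of Tlr1 in aged and aged-GA mice (2.14 and 1.62 CPM), and NK cells had 0 UMIs in each library, which allows up to 2.86, 3.42 and 3.15 CPM. The Tlr1 count is uncertain in one respect: of 970 words of 31 bases in the last 1000 bases of its transcripts, 404 also occur in Tlr6 transcripts, while the last 1000 bases of Tlr6 share 0 of 970 with another member.

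Tlr4, the lipopolysaccharide receptor, was at 22.4 CPM (16.2 to 30.3) in aged and 26.6 CPM (18.3 to 37.4) in aged-GA neutrophils and at 9.73 and 5.37 CPM in classical monocytes. Few UMIs lay behind these levels, 42 and 33 in neutrophils and 57 and 4 in classical monocytes. B cells held a low level that T cells did not share, 1.63 CPM (14 UMIs) in young, 3.44 CPM (47 UMIs) in aged and 2.44 CPM (55 UMIs) in aged-GA mice, against 0, 2 and 1 UMIs in T cells. NK cells had 0 UMIs in young mice, which allow up to 2.86 CPM, and 2.28 CPM (2 UMIs) and 3.15 CPM (3 UMIs) in aged and aged-GA mice. The order of B and NK cells is therefore open. The ratio of B to T cells was 17.3 (4.54 to 147) in aged and 50.7 (8.73 to 2039) in aged-GA mice, whereas the same ratio was 1.06 (0.648 to 1.74) for Cd14 and 0.860 (0.248 to 3.10) for Tlr13 in aged mice. B cells held 87.5% of the 16 Tlr4 UMIs of young mice, 19.6% of those of aged mice and 35.0% of those of aged-GA mice.

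**Figure D1:**
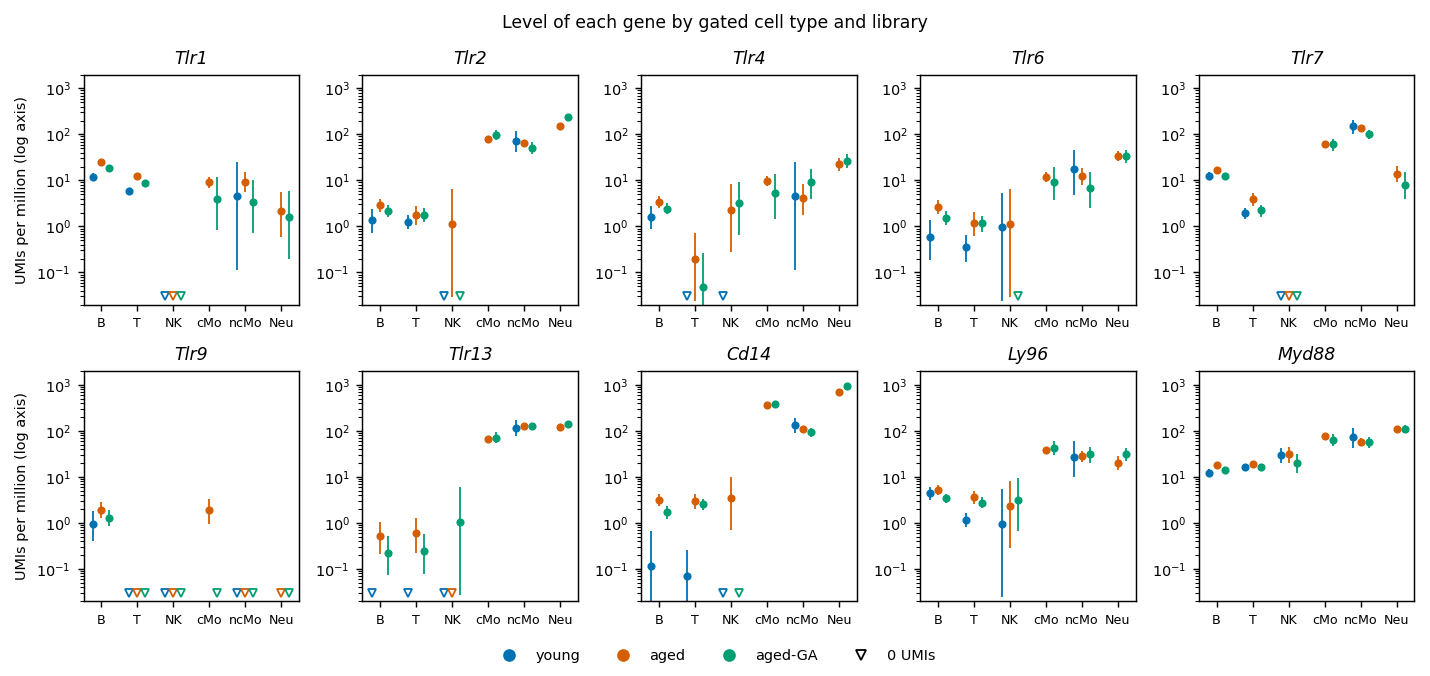
Level of each member in CPM, on a log axis, in each cell type of the young, aged and aged-GA libraries, with the exact 95% interval for counting error as bars and open triangles at the foot for 0 UMIs (cMo, classical monocytes; ncMo, nonclassical monocytes; Neu, neutrophils; young cMo and Neu not drawn). By this measure, which is not an amount per cell, Tlr2, Tlr4, Tlr6 and Cd14 were highest in neutrophils of the aged and aged-GA libraries. Tlr7 was highest in nonclassical monocytes, and Tlr1 in B cells.

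Among the endosomal receptors, Tlr7, a sensor of single-stranded RNA, was, among the main cell types, highest in nonclassical monocytes, at 149 CPM (103 to 210) in young, 137 CPM (121 to 155) in aged and 101 CPM (81.4 to 125) in aged-GA mice. Classical monocytes held 61.1 and 60.4 CPM in aged and aged-GA mice, so nonclassical monocytes stood above them by 2.24-fold (1.90 to 2.64) and 1.68-fold (1.16 to 2.46). The 2 plasmacytoid dendritic cells of aged mice and the 1 of aged-GA mice had 2 UMIs each time. Neutrophils held 13.9 and 8.08 CPM, and NK cells had 0 UMIs in each library. B cells held 12.6, 17.2 and 12.6 CPM and stood above T cells by 6.40-fold (4.58 to 9.02), 4.33-fold (3.09 to 6.22) and 5.69-fold (4.16 to 7.95). Within B cells, those gated by Zbtb20, Fcrl5 and further genes of innate-like and memory-like B cells were above follicular B cells in each library, by 1.67-fold (0.879 to 3.03), 1.53-fold (1.02 to 2.25) and 1.97-fold (1.45 to 2.67), the first with an interval that holds 1.

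Tlr13, the sensor of bacterial ribosomal RNA that rodents keep, was highest in nonclassical monocytes and neutrophils. Its level was 118, 130 and 125 CPM in nonclassical monocytes of young, aged and aged-GA mice, 123 and 141 CPM in aged and aged-GA neutrophils and 65.2 and 71.2 CPM in classical monocytes. Nonclassical monocytes stood above classical ones by 1.997-fold (1.69 to 2.35) and 1.76-fold (1.26 to 2.49), and neutrophils and nonclassical monocytes differed by less than counting error, with ratios of 0.947 (0.788 to 1.14) and 1.13 (0.884 to 1.45). Conventional dendritic cells, 42 in aged and 17 in aged-GA mice, held 41.3 and 27.6 CPM, and cells of several gates held 32.0% and 42.7% of all Tlr13 UMIs of these libraries. B cells had 0, 7 and 5 UMIs and T cells 0, 6 and 5 UMIs of Tlr13.

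Tlr9, which senses unmethylated DNA, was the least counted member, with 10, 54 and 41 UMIs in all kept cells. B cells had 8, 26 and 29 of them (0.931, 1.90 and 1.29 CPM), and aged classical monocytes had 11 (1.88 CPM). T cells, NK cells, nonclassical monocytes and neutrophils had 0 UMIs in each library. For T cells, 0 UMIs allow at most 0.107, 0.297 and 0.145 CPM, below the level in B cells of the same library. For NK cells, 0 UMIs allow up to 2.86, 3.42 and 3.15 CPM, above that level, so the order of B and NK cells is open.

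The co-receptor Cd14 had the most UMIs of the members in the aged and aged-GA libraries, 5617 and 2976 over all kept cells, and 165 in young mice. Its level was 680 CPM (643 to 718) in aged and 954 CPM (900.1 to 1009.7) in aged-GA neutrophils, 363 and 389 CPM in classical monocytes, and 131, 112 and 93.4 CPM in nonclassical monocytes of young, aged and aged-GA mice. Neutrophils stood above classical monocytes by 1.87-fold (1.75 to 2.01) and 2.45-fold (2.15 to 2.79), and nonclassical monocytes below them at 0.308-fold (0.266 to 0.355) and 0.240-fold (0.185 to 0.307). The order of neutrophils and classical monocytes turned with the measure. Without thinning, 86.1% of aged classical monocytes and 62.1% of aged neutrophils had a Cd14 UMI, at a median of 9549 and 2189.5 UMIs per cell, but with each cell thinned to 1000 UMIs the shares were 29.6% (26.0 to 33.5) and 43.6% (39.9 to 47.5). Beside these, 0.392% of aged T cells had a Cd14 UMI at 1000 UMIs, and 1.32% without thinning at a median of 4538 UMIs.

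Outside the myeloid cells Cd14 was low in the aged library, at 3.14 CPM in B cells, 2.97 CPM in T cells, 3.42 CPM (3 UMIs) in NK cells and 3.52 CPM (6 UMIs) in erythroid cells. Within B cells the level was 4.10 CPM (24 UMIs) in follicular and 0.618 CPM (1 UMI) in Zbtb20/Fcrl5 B cells, a ratio of 0.151 (0.00366 to 0.924).

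Ly96, the lipopolysaccharide-binding partner of Tlr4, had its highest measured level in classical monocytes, at 37.4 CPM (32.6 to 42.7) in aged and 43.0 CPM (29.4 to 60.6) in aged-GA mice. Unlike Tlr4 and Cd14, its level in neutrophils lay below that in aged classical monocytes, at 20.3 CPM or 0.543-fold (0.374 to 0.768), and the aged-GA ratio was 0.714 (0.435 to 1.18). Nonclassical monocytes held 27.1, 27.8 and 30.7 CPM. The nonclassical over classical ratio was 0.744 (0.541 to 1.01) in aged and 0.716 (0.413 to 1.23) in aged-GA mice. The order of the 2 kinds of monocyte was therefore open in both libraries. B cells held 4.42, 5.19 and 3.42 CPM, and the Zbtb20/Fcrl5 B cells stood above follicular B cells by 1.81-fold (0.671 to 4.49), 2.07-fold (1.04 to 3.95) and 3.24-fold (1.84 to 5.71).

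The adaptor Myd88 had UMIs in every main cell type. Its level was 108 and 111 CPM in aged and aged-GA neutrophils, 76.8 and 63.1 CPM in classical monocytes, and 72.4, 58.3 and 55.8 CPM in nonclassical monocytes of young, aged and aged-GA mice. NK cells, which had 0 UMIs of Tlr1, Tlr7 and Tlr9, held 29.6, 30.8 and 19.96 CPM of Myd88, above T cells by 1.77-fold (1.19 to 2.55) in young and 1.64-fold (1.05 to 2.46) in aged mice and by 1.24-fold (0.737 to 1.97) in aged-GA mice. T cells held 16.7, 18.8 and 16.1 CPM and B cells 11.9, 18.0 and 14.1 CPM. Myd88 overlaps Slc22a14 on its own strand and Acaa1a on the other, so its count is uncertain to that extent.

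Neutrophils were divided by granule genes (Ltf, Camp, Ngp, Lcn2 and Cd177) into 534 mature and 70 immature cells in aged mice and 354 and 44 in aged-GA mice. Immature cells held UMIs of at least 4 of these genes and mature cells of at most 1, and neutrophils in between were in neither stage. Mature and immature cells had a median of 2038.5 and 6743.5 UMIs in aged mice and 2180.5 and 6564 in aged-GA mice. The part of this depth in the division was not tested. In CPM, Tlr2, Tlr4, Tlr6, Tlr13, Cd14, Ly96 and Myd88 were higher in the mature cells of both libraries. For 3 of them few UMIs lay behind the immature level in aged and aged-GA mice: 2 and 3 for Tlr4, 3 and 2 for Tlr6, and 1 and 3 for Ly96. Per cell, the order turned in aged-GA mice for Cd14, with 954 UMIs in 354 mature and 135 in 44 immature cells. It turned there for Myd88 as well, with 113 and 15 UMIs. For the others of these genes, and in aged mice, it did not turn. Tlr7 had 15 and 7 UMIs in mature and immature cells of aged mice (13.4 and 14.5 CPM), Tlr1 had 1 in each, and Tlr9 had 0. The 9 monocyte markers summed to 6328 CPM in mature and 13424 CPM in immature neutrophils of aged mice and to 5171 and 12861 CPM in aged-GA mice, and their part was not tested. Cd14 was at 858 CPM in mature and 191 CPM in immature neutrophils of aged mice, a ratio of 4.50 (3.63 to 5.64), and at 1160.1 and 442 CPM in aged-GA mice, a ratio of 2.63 (2.19 to 3.17). Tlr2 was at 213 and 29.0 CPM in aged mice, a ratio of 7.33 (4.28 to 13.6), and at 270 and 81.8 CPM in aged-GA mice, a ratio of 3.30 (2.18 to 5.21). Tlr13 had ratios of 4.49 (2.72 to 7.88) and 3.95 (2.28 to 7.41), and Myd88 ratios of 3.35 (2.12 to 5.55) and 2.80 (1.63 to 5.17). The ratios of Cd14, which had the most UMIs of these 4 genes, were the only ones with intervals that did not overlap between the libraries. The share of all genes with such intervals was not counted.

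**Figure D2:**
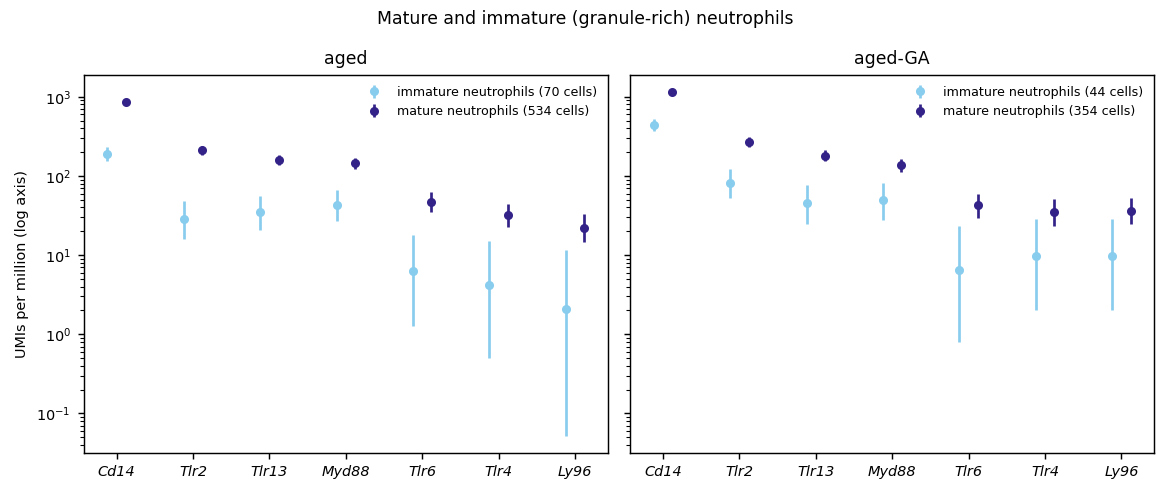
Levels of members in CPM in mature and immature neutrophils of the aged and aged-GA libraries, with exact 95% intervals for counting error as bars. In CPM, mature cells lay above immature cells for Cd14, Tlr2, Tlr13 and Myd88 in both libraries. Per cell, Cd14 and Myd88 were higher in immature cells of the aged-GA library.

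Genes with the most similar pattern were sought over 24 units of cell type and library among 5337 genes, by Pearson's r of log2(CPM + 10). The units share libraries, so r is a description. For Cd14 and Tlr2 the same 3 genes came first, Gm5150 (r = 0.993 and 0.989), Sirpb1b (0.986 and 0.986) and Mcemp1 (0.984 and 0.984). Gpr35 (0.991), 6430548M08Rik and Pla2g7 were closest to Tlr13, and Gngt2 (0.971), Ceacam1 and Ldlrad3 to Tlr7. Closest to Tlr6 were Clec4e (0.963), Slc22a15 and Ampd3, to Tlr4 Siglece (0.939), A530064D06Rik and Clec4d, to Ly96 Rab31 (0.937), Ogfrl1 and Sqor, and to Myd88 Prdx5 (0.965), Picalm and Pgd. For Tlr1 they were BE692007 (0.870), Mif4gd and Pgap1, and for the sparse Tlr9 Fcor (0.858), Kmo and Sult1a1. Between members, Cd14 and Tlr2 had r = 0.99 and Tlr13 and Tlr2 0.96, while Tlr1 had -0.04 with Tlr2 and 0.05 with Tlr6.

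Over all kept cells, every member was higher in aged than in young mice. The level of Cd14 went from 3.42 to 104 CPM, of Tlr13 from 0.953 to 25.4 CPM, of Tlr2 from 1.91 to 26.0 CPM, of Tlr7 from 4.99 to 24.995 CPM and of Myd88 from 14.3 to 34.2 CPM. All 10 members were at least 2-fold higher, where 22.5% of the 14039 genes compared were, with 5.21% lower. Their median log2 ratio was 3.18 and that of all genes 0.37, and Tlr1 had the smallest difference, 1.03 (0.83 to 1.22), which lay between 0.95 and 0.99 under 3 of the other settings, without the 2-fold call. Between aged and aged-GA mice, 7 of 10 members were at least 2-fold lower with GA, where 8.16% of 14223 genes were and 1.51% were higher, with a median log2 ratio of -1.17 against -0.10 for all genes. Cd14 went from 104 to 39.2 CPM and Tlr13 from 25.4 to 8.33 CPM, while Tlr1 (-0.30), Myd88 (-0.86) and Tlr9 (-0.89) stayed within 2-fold. The call for Tlr4 (-1.11) was lost with a minimum of 500 genes per cell (-0.99). Both comparisons use the same aged library. A smaller share of a cell type and less RNA per cell cannot be told apart in such sums. Shares of UMIs hold both, and only these shares were set apart next from the level within a cell type.

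For that, the level of each gene per cell type in aged mice was combined with the shares of UMIs of the cell types in another library. Only cells assigned to 1 cell type entered this sum. With the shares of aged-GA mice, aged levels gave 25.1 CPM of Cd14, down from 100.2 CPM, where 30.2 CPM (28.8 to 31.7) was measured in aged-GA mice. Tlr13 gave 6.46 CPM, against 6.48 CPM (5.83 to 7.18) measured, and Tlr2 7.91 CPM, against 9.20 CPM (8.42 to 10.0). In these singly gated cells, Cd14 and Tlr2 were thus measured above the value set by the shares, and the other members apart from Tlr13 below it. Tlr7 gave 11.99 CPM, against 8.77 CPM (8.01 to 9.58) measured, Tlr6 2.80 CPM, against 2.04 CPM (1.68 to 2.45), and Tlr9 0.807 CPM, against 0.537 CPM (0.362 to 0.766). Myd88 gave 19.95 CPM, against 16.9 CPM, Ly96 5.03 CPM, against 4.35 CPM, and Tlr4 2.28 CPM, against 1.90 CPM (1.55 to 2.29). Tlr1 gave 15.1 CPM, against 10.9 CPM (10.1 to 11.8) measured, and was the single member that the shares did not lower from its aged level, 14.5 CPM.

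With the shares of young mice, all 10 members were measured below the value set by the shares. The aged level of Cd14 went to 4.55 CPM, where 2.14 CPM (1.72 to 2.63) was measured, that of Tlr7 to 7.02 CPM (4.81 measured) and that of Tlr2 to 2.66 CPM (1.81 measured). For Tlr1 it stayed at 13.5 CPM, where 6.48 CPM (5.73 to 7.30) was measured. Cells of several gates, with 12.6%, 29.3% and 26.1% of the UMIs in young, aged and aged-GA libraries, were outside this sum. Cells of no gate were outside it as well. With each of these groups as a type of its own, aged Cd14 under the young shares was 18.7 CPM against 3.42 CPM measured. Under the aged-GA shares it was 49.0 CPM against 39.2 CPM measured. Tlr13 was then 12.03 CPM under the aged-GA shares, against 8.33 CPM (7.70 to 9.01) measured.

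**Figure D3:**
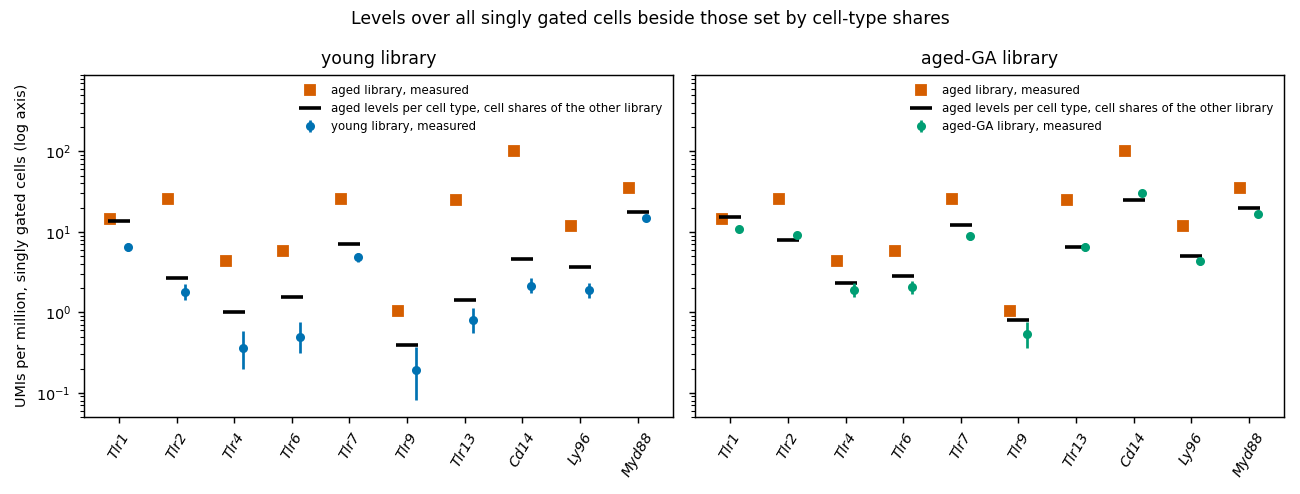
Level of each member in CPM, on a log axis, in singly gated cells of the aged library, with aged levels under the cell type shares of another library, and as measured in that library. Under the aged-GA shares Cd14 came from 100.2 to 25.1 CPM, with 30.2 CPM measured, while Tlr1 stayed at 15.1 CPM, with 10.9 CPM measured. With cells of several gates and of no gate included (not drawn), Cd14 and Tlr2 were measured below the value set by the shares.

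**Figure D4:**
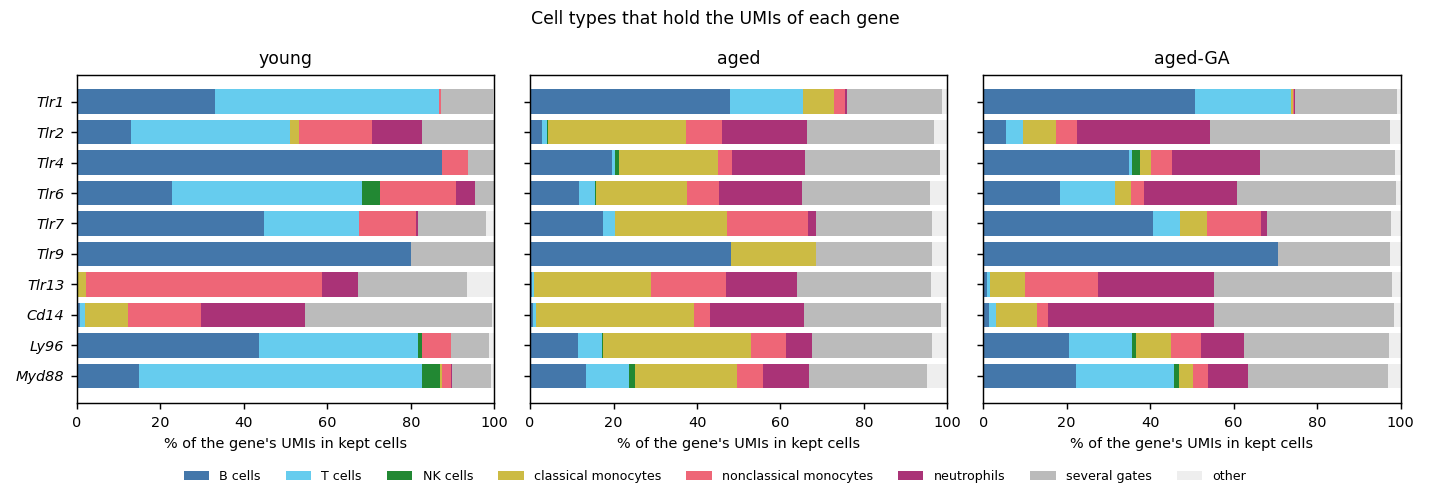
Percent of the UMIs of each member that each cell type held in the young, aged and aged-GA libraries. The share of Tlr4 UMIs that B cells held was 87.5% in the young, 19.6% in the aged and 35.0% in the aged-GA library.

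Within B cells, 9 members had enough UMIs for a comparison of aged with young mice, at least 10 expected in each library at the pooled rate, and 6 were at least 2-fold higher in aged mice, where 8.5% of 10748 genes were, with 1.88% lower. The median log2 ratio of the 9 was 1.05 and that of all genes 0.29. Tlr1 went from 11.99 to 24.9 CPM, a log2 ratio of 1.05 (0.73 to 1.38) on 103 and 340 UMIs. Tlr4 had 1.08 (0.19 to 2.05), Tlr2 1.07 (0.11 to 2.13), Tlr6 2.22 (0.87 to 3.92, on 5 and 37 UMIs) and Tlr9 1.03 (-0.16 to 2.38). The sixth was Cd14, with 1 UMI in young and 43 in aged B cells (4.76, 2.20 to 10.09), where aged B cells held 3.14 CPM and aged T cells 2.97 CPM. Tlr7 (0.45, 0.12 to 0.79), Myd88 (0.60, 0.26 to 0.95) and Ly96 (0.23, -0.36 to 0.84) stayed within 2-fold.

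Most of these B-cell calls lay near 2-fold. Leaving out B cells with 2 or more markers of another class gave 0.99 for Tlr1 and 0.84 for Tlr2, and a pseudocount of 1 CPM gave 0.99 and 0.71. The summed level of the 10 neutrophil markers in B cells was 9.20, 279 and 183 CPM in young, aged and aged-GA mice, whose part in the result was not tested. In follicular B cells alone the ratio for Tlr1 was 1.13 (0.59 to 1.72), and 1 of 4 members was past 2-fold there, where 7.89% of genes were higher and 1.21% lower. In the Zbtb20/Fcrl5 B cells it was 0.53 (-0.38 to 1.53).

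Within T cells, 3 of 5 members were at least 2-fold higher in aged than in young mice, where 13.5% of 10803 genes were, with 2.03% lower. Tlr1 had a log2 ratio of 1.03 (0.69 to 1.38), Tlr7 1.01 (0.39 to 1.63) and Ly96 1.60 (0.88 to 2.33), while Tlr2 had 0.51 (-0.39 to 1.37) and Myd88 0.18 (-0.08 to 0.42). The 9 B-cell markers summed to 21.3, 69.0 and 104 CPM in young, aged and aged-GA T cells. Without the T cells that held 2 or more markers of another class, Tlr1 was at 1.28 and Tlr7 at 0.84, and with a pseudocount of 1 CPM Tlr1 was at 0.93 and Tlr7 at 0.74. The 9 monocyte markers went from 230 to 450 CPM in the same cells, and their part was not tested.

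Within nonclassical monocytes, 0 of 5 members passed 2-fold between young and aged mice, where 4.46% of 3322 genes were higher and 1.11% lower. The log2 ratios were -0.16 (-0.92 to 0.69) for Tlr2, -0.12 (-0.65 to 0.45) for Tlr7, 0.15 (-0.44 to 0.79) for Tlr13, -0.23 (-0.79 to 0.38) for Cd14 and -0.31 (-1.07 to 0.54) for Myd88. The 44 young cells leave room for differences of up to about that interval, so smaller ones were not detectable at this depth, and Tlr1, Tlr4, Tlr6, Tlr9 and Ly96 had too few UMIs for a comparison. Whether these ratios differ from those in lymphocytes was not tested. In NK cells only Myd88 could be compared, at 0.06 (-0.74 to 0.85), where 5.16% of genes were at least 2-fold higher and 2.43% lower.

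Between aged and aged-GA mice, 0 of 9 members passed 2-fold in B cells, where 1.27% of 11376 genes were lower and 0.677% higher. All 9 were lower with GA, with a median log2 ratio of -0.49 against -0.05 for all genes. Tlr1 had -0.44 (-0.65 to -0.23), Tlr7 -0.44 (-0.70 to -0.19), Tlr6 -0.84 (-1.56 to -0.13), Ly96 -0.60 (-1.09 to -0.12) and Myd88 -0.35 (-0.59 to -0.10), and Tlr2, Tlr4 and Tlr9 had intervals that held 0. In T cells 0 of 7 passed 2-fold, where 1.6% of 11101 genes were lower and 0.604% higher, and Tlr1 (-0.46, -0.79 to -0.12) and Tlr7 (-0.84, -1.48 to -0.19) had intervals below 0. Lyz2 went from 101 to 27.3 CPM in T cells of the same libraries. In follicular B cells 1 of 7 members was past 2-fold, Cd14 on 24 and 19 UMIs (-1.25, -2.20 to -0.32), where 0.652% of genes were lower and 0.82% higher. In NK cells Myd88 was at -0.63 (-1.55 to 0.27), where 1.59% were lower and 1.87% higher.

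In classical monocytes 0 of 6 members passed 2-fold with GA, where 0.601% of genes were higher and 1.63% lower, with log2 ratios from -0.28 (Myd88) to 0.32 (Tlr2) and every interval holding 0. In nonclassical monocytes 0 of 6 passed it, where 1.07% were higher and 0.983% lower, and Tlr7 was lower, from 137 to 101 CPM (-0.44, -0.80 to -0.08). In neutrophils 0 of 8 members passed 2-fold, where 2.48% of 5804 genes were higher and 0.879% lower, but Tlr2 was higher with GA, from 152 to 233 CPM (0.62, 0.38 to 0.86), and Cd14 from 680 to 954 CPM (0.49, 0.37 to 0.60). The other 6 had intervals that held 0: Tlr13 (0.20), Tlr4 (0.25), Ly96 (0.60) and Myd88 (0.04) above it, and Tlr6 (-0.02) and Tlr7 (-0.78, -1.998 to 0.32) below it.

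Both differences were present in each stage of neutrophil. In mature neutrophils, where 2.38% of genes were at least 2-fold higher and 1.54% lower and 0 of 7 members passed it, Tlr2 had a log2 ratio of 0.34 (0.07 to 0.61) and Cd14 0.43 (0.30 to 0.57). In immature neutrophils 2 of 4 members were past 2-fold, where 4.44% of genes were higher and 1.43% lower: Tlr2 with 1.50 (0.50 to 2.55), on 14 and 25 UMIs, and Cd14 with 1.21 (0.82 to 1.61), on 92 and 135 UMIs. At 1000 UMIs per cell the share of mature neutrophils with a Cd14 UMI was 46.8% and 46.9% in the aged and aged-GA libraries, without the difference seen in the level. The share with a Tlr2 UMI was 18.2% (14.95 to 21.8) and 23.8% (19.3 to 28.6). The B-cell markers in neutrophils summed to 111 and 186 CPM in the aged and aged-GA libraries, and the T-cell markers to 62.5 and 120 CPM, and their part was not tested.

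**Figure D5:**
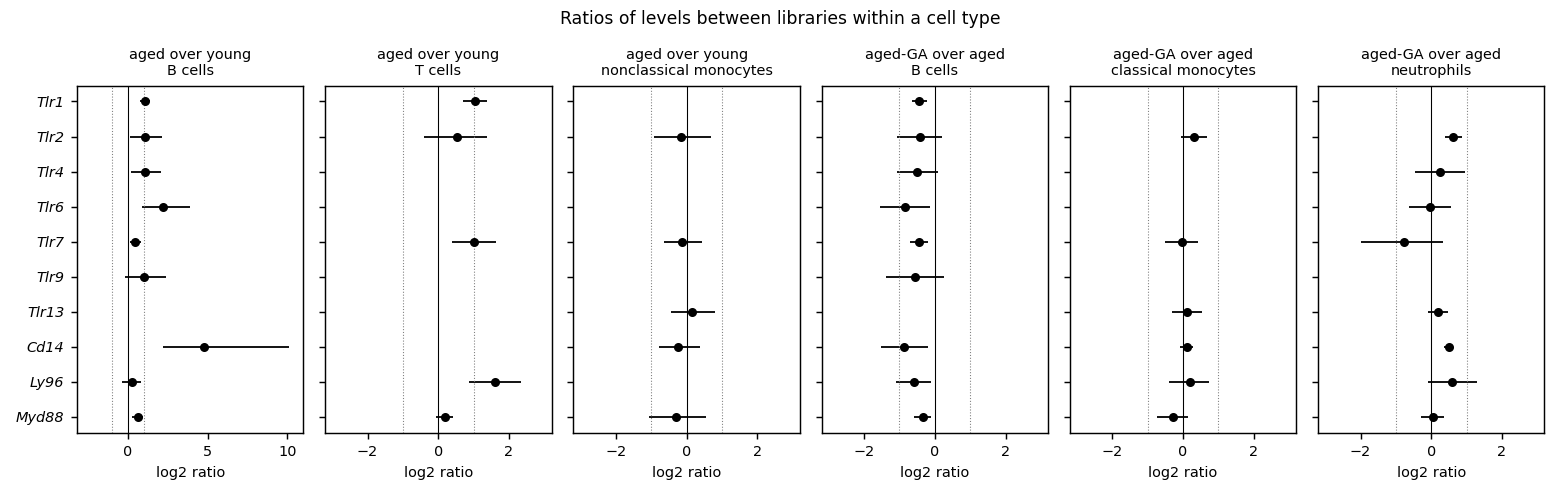
Log2 ratio of the level of each member within cell types, aged over young and aged-GA over aged, with exact 95% intervals for counting error as bars and dotted lines at 2-fold; the first panel has a wider axis than the others. Tlr1 in B and T cells lay just above 2-fold in aged mice, while Tlr2 and Cd14 in neutrophils were higher with GA by less than 2-fold.

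Of 53 further genes of the pathway, 46 could be compared in B cells between young and aged mice, and 8 were at least 2-fold higher and 1 lower (8.5% and 1.88% of all genes), with a median of 0.34 against 0.29 for all genes. Cd180, a Toll-like co-receptor of B cells, went from 36.4 to 75.4 CPM, Slc15a4, an endosomal transporter used by Tlr7 and Tlr9, from 29.6 to 66.1 CPM, and the kinase Ikbke from 2.21 to 5.63 CPM. Tlr3, the receptor of double-stranded RNA, went from 8 to 26 UMIs. S100a8, S100a9, Il1b and Cxcl2 were the other 4, all of them at 0 or a few CPM in young B cells, and the cytokine gene Tnf was lower, 5.70 and 1.54 CPM. In T cells 11 of 44 were higher and 2 lower (13.5% and 2.03% of all genes), with Unc93b1, the chaperone of the endosomal receptors, at 3.43 and 15.4 CPM, the adaptor Pik3ap1 at 0.643 and 10.2 CPM, Traf3 at 13.1 and 27.5 CPM and Tnf at 20.9 and 8.73 CPM. Unc93b1 and Pik3ap1 were at 406 and 80.3 CPM in aged B cells. S100a8 and S100a9, markers of the neutrophil gate, were also among the 11 in T cells, at 2.43 and 73.5 CPM and at 2.39 and 96.9 CPM.

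In nonclassical monocytes, 4 of 6 comparable target and feedback genes were at least 2-fold lower in aged than in young mice, where 1.11% of all genes were. Nfkbia, the inhibitor of NF-kappaB, went from 3085 to 1023 CPM, Nfkbiz from 678 to 286 CPM, Tnfaip3 from 285 to 113 CPM and the chemokine Cxcl2 from 176 to 53.0 CPM. Over all 29 comparable pathway genes there, 4 were higher, where 4.46% of all genes were, and 4 lower. Of those higher, 2 were among S100a8, S100a9 and Hmgb1, listed as endogenous ligands of Tlr4 and Tlr2.

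With GA, 0 of 46 pathway genes in B cells and 1 of 43 in T cells (Ly86, 3.57 and 1.74 CPM) passed 2-fold, where 1.27% and 1.6% of all genes were lower. In classical monocytes Il1b, which encodes interleukin-1 beta, was higher, at 50.2 and 126 CPM, and S100a8 lower, at 148 and 45.6 CPM, among 37 genes (0.601% of all genes higher, 1.63% lower). The aged-GA value of S100a8 rested on 34 UMIs, and S100a9 stayed within 2-fold in these cells, at 62.0 and 52.4 CPM. S100a8, a marker of the neutrophil gate, was also lower in lymphocytes, at 103 and 67.8 CPM in B cells and 73.5 and 49.9 CPM in T cells. The part of such UMIs in the monocyte value was not tested. In nonclassical monocytes Cxcl2 was higher, at 53.0 and 109 CPM, among 41 (1.07% of all genes higher). In neutrophils 1 of 37 passed 2-fold (Lrrc59, on 10 and 21 UMIs), where 2.48% of all genes were higher. All 7 target and feedback genes were higher with GA in neutrophils but within 2-fold, with a median log2 ratio of 0.65 against 0.13 for all genes, Nfkbia at 915 and 1739 CPM and Il1b at 9339 and 12580 CPM.

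The 2 genes of each pathway group with the highest level placed the machinery beside the members. Unc93b1 was at 458 CPM in classical monocytes, 406 CPM in B cells and 15.4 CPM in T cells of aged mice. Hsp90b1, of the same group of genes for trafficking and folding of the receptors, was at 350, 349 and 267 CPM. Tlr7 was at 61.1, 17.2 and 3.97 CPM in these cell types, and its highest level, 137 CPM, was in nonclassical monocytes. Ly86, the partner of Cd180, was at 430 CPM in aged classical monocytes, 335 CPM in B cells and 4.80 CPM in neutrophils, and Cd180 itself at 45.4, 75.4 and 2.14 CPM. Tirap, the adaptor that brings Myd88 to Tlr2 and Tlr4, was highest in neutrophils, at 49.1 and 43.6 CPM in the aged and aged-GA libraries, against 11.4 and 14.8 CPM in classical monocytes. Pik3ap1 was at 203 CPM in nonclassical monocytes and 109 CPM in neutrophils of aged mice, and Irf5, which acts behind Tlr7 and Tlr9, at 215 CPM in classical monocytes, 206 CPM in nonclassical monocytes and 63.6 CPM in B cells. Tlr8, on 12.5 and 11.6 CPM in aged classical and nonclassical monocytes, was next to absent in aged lymphocytes, with 0.0731 CPM in B cells. Irak1, Peli1, Ikbkb, Tab2 and Nfkb1 were present in every main cell type of the aged library.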

How the data were processed

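Each group, young, aged and aged-GA, gave 1 droplet library of PBMCs (10x Genomics 3′ chemistry). The authors made the count tables with Cell Ranger, version 5.0.0 per the file headers and build mm10 per the submitters' processing notes, and deposited them as raw counts (UMIs of each gene in each barcode). From these, cells with at least 200 genes, below 90% of the largest number of genes in a library and with at most 7.5% mitochondrial UMIs were kept. The study used these limits on its aggregated libraries and states other numbers of cells, whereas here the limit on the number of genes was set in each library. The kept cells held 48249945, 53770440 and 75832322 UMIs for young, aged and aged-GA. A cell was gated by its number of distinct markers with a UMI (4 of 9 for B cells, 4 of 10 for T cells, 4 of 9 for NK cells, 6 of 9 for monocytes, 6 of 10 for neutrophils). Monocyte kinds and immature neutrophils needed 4 further markers, and mature neutrophils held at most 1 granule marker. The members, lists and markers were chosen with earlier results of these data known, and the gate limits were set after the distributions of marker counts had been seen. Doublets were kept; Scrublet was an alternative, with a fixed score limit of 0.2 because its automatic threshold called 0 in the aged-GA library, and it called 4.94%, 4.41% and 5.32% of young, aged and aged-GA cells.

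UMIs were summed per library and cell type (Python 3.11.15, scanpy 1.11.5, scipy 1.17.1). Levels have exact Poisson intervals, ratios exact conditional binomial ones and shares Clopper-Pearson ones, at 95%. A limit at 0 UMIs is 3 counts. With 1 library per group no test was made, and a gene counted as past 2-fold by size alone, among genes with at least 10 expected UMIs in each library and cell types of at least 20 cells. All members were named, with the 3 genes most correlated with each member that reached 50 CPM in a unit of at least 100000 UMIs. Pathway genes were named from those past 2-fold in a main cell type or among the 2 highest of their group. Not every pathway gene past 2-fold was named. Cells were thinned to 1000 UMIs for shares. The script steps were tested on simulated data. Alternatives were a stricter and a purer gate, the doublets, the filters, the denominator, a pseudocount of 1 CPM, no minimum of UMIs and other depths.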

Additional observations from a re-analysis of the deposited data

Results flagged for a closer look

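Cd14 moved in opposite directions in 2 cell types between aged and aged-GA mice, higher in neutrophils, with a log2 ratio of 0.489, and lower in B cells, with -0.859. The difference between the cell types was not tested, since each group is 1 library. The B-cell level, 3.14 and 1.73 CPM, was at that of T cells, 2.97 and 2.51 CPM.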

How the results depend on the processing

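Under the alternatives, the median over the members stayed within its counting error 43 times and moved 5 times. The median for aged over young in B cells went from 1.05 to 0.71 with a pseudocount of 1 CPM. For aged-GA over aged, the purer gate gave -0.61 in B cells (from -0.49), -0.12 in classical monocytes (from 0.11) and 0.11 in neutrophils (from 0.22), where the stricter gate gave 0.091. The purer gate kept 83 of 597 aged and 21 of 81 aged-GA classical monocytes, and it made all 12 level values that moved beyond counting error (600 did not), with Cd14 at 355 and 337 CPM in aged and aged-GA classical monocytes. No called ratio changed sign, which would have needed a shift of more than 2-fold. Among ratios within 2-fold, several changed sign. For aged-GA over aged in T cells, the purer gate gave 0.98 for Tlr6 (from -0.04). In classical monocytes that gate gave -0.12 for Tlr13 (from 0.13), -0.08 for Cd14 (from 0.10) and -0.55 for Ly96 (from 0.20). Calls in lymphocytes near 2-fold were lost under single settings: in B cells Tlr1 was at 0.99 under 2 of them, Tlr2 at 0.84 and 0.71, Tlr4 at 0.75 and Tlr9 between 0.59 and 0.98, with Cd14 at 1.89 under the pseudocount, and in T cells Tlr1 was at 0.93 under the pseudocount and Tlr7 between 0.74 and 0.99. Over all kept cells, Tlr1 for aged over young was between 0.95 and 0.99 under 3 settings and Tlr4 for aged-GA over aged at -0.99 with at least 500 genes. Myd88 in NK cells passed 2-fold with GA under the stricter and purer gates, at -1.01 and -1.52. Tlr2 and Cd14 in neutrophils with GA ranged from 0.61 to 0.66 and from 0.44 to 0.55. Shares of cells moved with the depth they were thinned to by construction. No paired analysis was possible because each group has 1 library, and no replicate could be left out for the same reason.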

Other observations

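Tlr2 had 35 UMIs in T cells of young mice, where Lyz2 had 23. That is 1522 Tlr2 UMIs per 1000 Lyz2 UMIs, against 44.7 in the 11 neutrophils and 9.44 in the 44 nonclassical monocytes of the same library, whereas Cd14 had 2 UMIs and Tlr13 had 0 in these T cells. In aged T cells Tlr2 had 18 UMIs and Lyz2 1018. B cells of young mice had 12 UMIs of Tlr2 and 14 of Lyz2, or 857 per 1000 Lyz2 UMIs. NK and erythroid cells of young mice had 0 UMIs of Tlr2, which allow up to 2.86 and 0.741 CPM, against 1.25 CPM in T cells. The order of NK and T cells is therefore open.

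Barcodes with under 200 genes, which were left out, held the members at a summed 0.263, 3.19 and 2.66 CPM in the young, aged and aged-GA libraries, against 34.8, 251 and 108 CPM in kept cells.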
